A study of Mus musculus with 4 samples.

Results

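The kinesins, dyneins and myosins are the ATP-driven motor proteins of the cytoskeleton, and the m6A peaks of their transcripts were followed in mouse embryonic stem cells that lack or carry Mettl5. N6-methyladenosine (m6A) is a methyl mark on adenosines of RNA, and Mettl5 is the methyltransferase that places it in 18S ribosomal RNA. The members were taken by gene name: every listed gene whose symbol begins with Kif and a digit or c (kinesins), Dync1, Dync2 or Dnah and a digit (dyneins), or Myo or Myh and a digit (myosins). This gave 52 genes with a peak in any library, of 9949 genes in all, and 220 peaks of 46417. They were 28 kinesin, 5 dynein and 19 myosin genes. Of these, 51 were protein-coding in the lists and matched a RefSeq symbol, and Dnah2os was an antisense RNA that carries a dynein name and encodes no motor.

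The 4 libraries were 2 from Mettl5-/- (knockout) and 2 from wild type embryonic stem cells, all of strain C57BL/6N, and the labels name no other allele or agent. Each was total RNA, fragmented and enriched with the same m6A antibody (MeRIP-seq), and each came with its own peak list. The labels attach the same culture text, which also describes embryoid body and neural differentiation, to every library; all are labelled embryonic stem cells. Separate clones or cultures are not stated for either genotype, so the spread between its libraries may be technical. Knockout 1 and 2 held 12699 and 10821 peaks, and wild type 1 and 2 held 11696 and 11201, on the reference chromosomes of mm10. Of 12 pluripotency markers, 9 had a peak in some library and 7 in all 4, among them Klf4, Sox2 and Esrrb, while Nanog, Zfp42 and Dppa5a had none. Of 12 neural markers 4 had a peak, with Nes and Sox1 in all 4 lists at mean percentiles of 92.6 and 89.6 (ranked by p-value within a list, the strongest highest), and of 12 fibroblast markers 3 had one, all in every list, led by Pdgfrb at 85.5. Their part in the results was not tested. Read depth is unknown here. A peak needs both the RNA and the mark, and in bulk RNA fewer cells of a type and less RNA per cell cannot be told apart.

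Kinesins mostly walk towards the plus end of microtubules and carry organelles and vesicles, and several of them build the mitotic spindle, drive chromosome movement or complete cytokinesis. Cytoplasmic dynein is the main motor towards the minus end, and the axonemal dyneins beat cilia and flagella. Myosins move on actin: the Myh genes encode the heavy chains of filament-forming muscle and non-muscle myosins, and the Myo genes encode the unconventional myosins of vesicles, filopodia and mitochondria. In a stem cell that divides fast and carries no sarcomeres or motile cilia, the mitotic kinesins, cytoplasmic dynein and the non-muscle myosins are the members best known for work of this kind.

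Sequence can be shown where a deposited peak covers the start of a transcript in the RefSeq promoter table (build GRCm38.p6, the assembly behind mm10). These 3 stretches of 30 bases lie in the first 50 transcribed bases of a RefSeq transcript of members whose own peak covered all 50. They are printed because they place actual bases under the strongest knockout-only peak (Kif14), a 5' UTR peak of all 4 libraries (Myo5a) and the weak peak of a kinesin with a close relative among the strongest members (Kifc1). Capitals mark the letters GGAC or AGAC, and also GAAC or AAAC, the purine-rich core around which m6A is usually placed, searched on the transcript strand alone.
Kif14, chr1:136467863-136467892, plus strand: gttggAAACtgaaaaGAACaaaatgcccag
Myo5a, chr9:75071206-75071235, plus strand: ggAGACagaggaggctacagAGACcaggcc
Kifc1, chr17:33890584-33890613, minus strand: gctgattggcctggctcctGGACagcctgg
Kif14 and Myo5a held 2 such letter runs each and Kifc1 held 1. Of 32851 RefSeq windows, 50.8% held at least 1 of the 4 runs in their first 50 transcribed bases, so a match of this kind is common and marks no site.

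Motor genes were listed with a peak more often than protein-coding genes at large. Of 103 motor genes annotated as protein-coding in RefSeq, 51 (49.5%) had a peak in some library, where the share was 38.4% of all 21896 protein-coding genes. The motor genes are also longer, with a median genomic span of 68.5 kb against 17.1 kb, and the part of length in this was not tested. The families differed. A peak was listed for 28 of 42 kinesins (66.7%), 13 of 25 unconventional myosins (52.0%), 6 of 14 myosin heavy chains (42.9%), 2 of 7 cytoplasmic dynein genes (28.6%) and 2 of 15 axonemal dynein heavy chains (13.3%). Among those with no peak in any list were the spindle kinesin Kif11, the intraflagellar transport kinesin Kif3a, the neuronal kinesins Kif1a and Kif5a, and the sarcomeric heavy chains Myh1, Myh2, Myh4, Myh6, Myh7 and Myh8.

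Peak number was slightly higher in the knockout for motor genes. Knockout 1 and 2 held 59 and 57 motor peaks, and wild type 1 and 2 held 50 and 54, so the genotypes did not overlap. The mean was 58.0 ± 1.41 peaks in the knockout and 52.0 ± 2.83 in wild type (SD, n = 2 each), in 39 and 40 genes of the knockout libraries and 32 and 36 genes of the wild-type libraries. As a share of the list, motor peaks made 0.465% and 0.527% in the knockout and 0.427% and 0.482% in wild type, where the genotypes did overlap. With 2 against 2 libraries the smallest two-sided exact permutation p is 0.333, which cannot pass a threshold of 0.05, and no other test was run on these values.

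**Figure D1:**
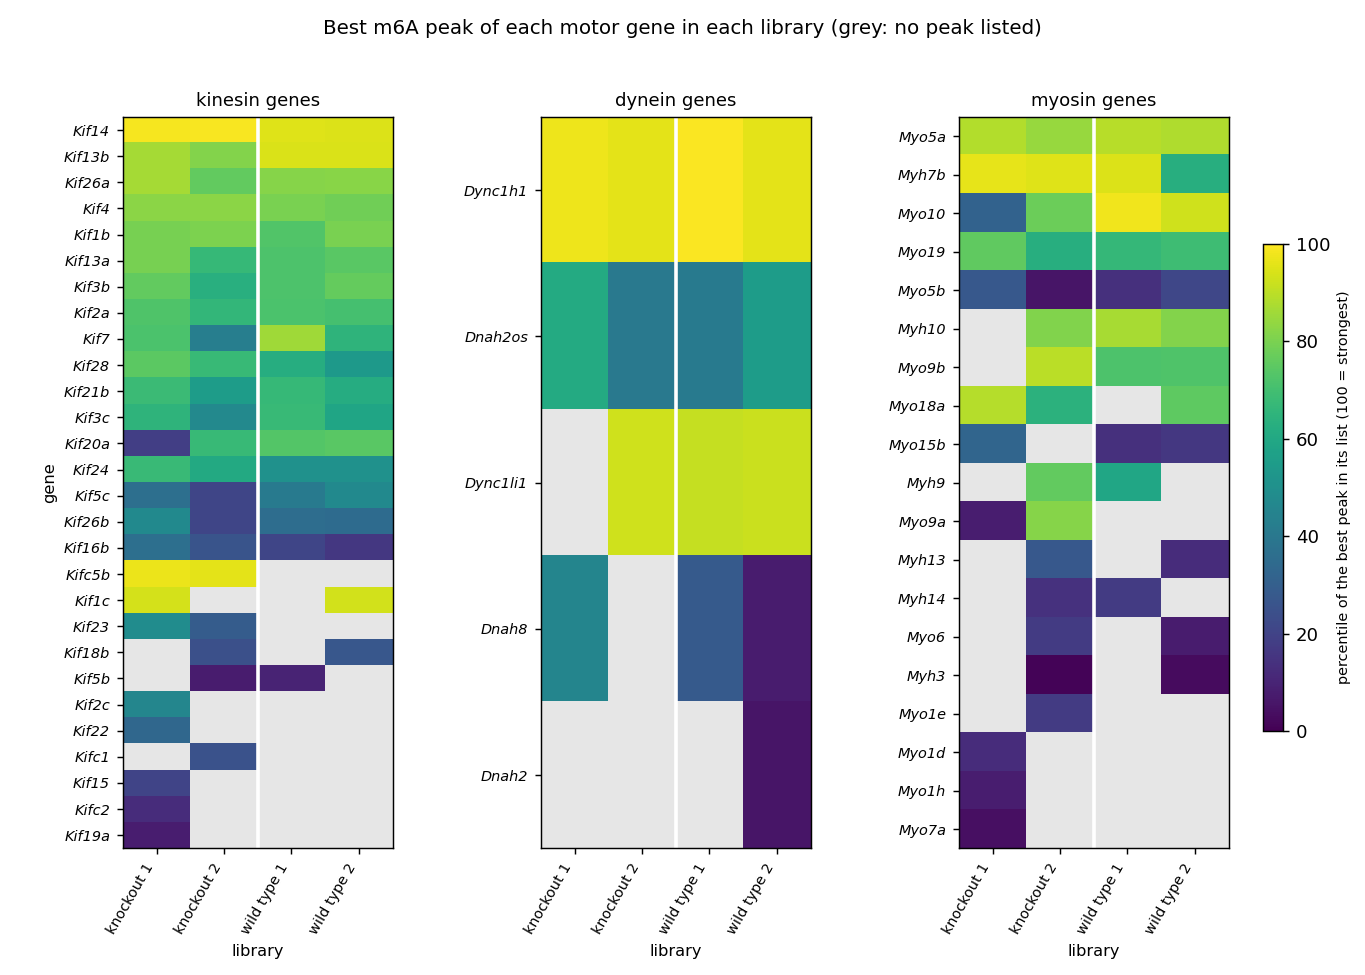
Percentile of the best peak of each of the 52 motor genes (rows, by family) in each of the 4 libraries (columns, knockout left of wild type), from 0 to 100, with grey where no peak was listed. The colours are alike across a row for most of the 24 genes listed in all 4 libraries, and Kifc5b is bright in both knockout libraries and grey in both wild-type libraries.

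Strength is given below as the percentile of a peak's p-value within its own list, 100 being the strongest, and a gene is represented by its best peak in a library. Folds are the authors' enrichment over a background that the lists do not name, and describe a peak within its list only.

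A smaller share of motor genes than of genes at large was found in every library, though not for kinesins. A peak in all 4 libraries was listed for 24 of 52 motor genes (46.2%), where it was 57.1% of all genes with a peak. By family these were 17 of 28 kinesins (60.7%), 2 of 5 dyneins (40.0%) and 5 of 19 myosins (26.3%). The kinesin share was thus close to that of all genes. Over these 24 genes the median percentile was 73.6 and 66.5 in knockout 1 and 2, and 72.0 and 69.8 in wild type 1 and 2, beside 71.7, 63.7, 67.5 and 66.7 for all 5683 such genes in the same order of libraries.

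The strongest and steadiest member was Dync1h1 (ENSMUSG00000018707), the heavy chain that carries the motor domain of cytoplasmic dynein. Its best peak stood at the 97.4 and 96.0 percentile in knockout 1 and 2, and at 99.4 and 96.0 in wild type 1 and 2. All 4 lists gave this peak the same limits, positions 110666324 to 110666945 on chromosome 12 (plus strand, mm10), in 2 exon blocks of coding sequence that hold 481 bases. The authors' fold was 136 and 57.2 in the knockout lists and 52.8 and 33.3 in the wild-type lists. A further coding-sequence region of Dync1h1, between positions 110616908 and 110619263, was also in all 4 lists, at percentiles 90.9 and 87.6 in the knockout and 85.4 and 85.9 in wild type.

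Dync1li1, the light intermediate chain that ties dynein to its cargo adaptors, had a 3' UTR peak on chromosome 9 at the 92.6 percentile in knockout 2, and at 91.2 and 91.9 in wild type 1 and 2. Knockout 1 listed no Dync1li1 peak, although its list was the longest. The axonemal genes were weak. Dnah8 had a coding-sequence peak at percentile 45.6 in knockout 1, and at 28.5 and 7.72 in wild type 1 and 2, with none in knockout 2. Dnah2 was listed in wild type 2 alone, at 5.80. The antisense transcript Dnah2os was in all 4 lists, at 61.3 and 40.6 in the knockout and 41.0 and 55.2 in wild type. Of 12 markers of multiciliated cells, 5 had a peak, between 4 and 5 in each library; Ccdc40, Rsph4a and Dnaaf1 were in all 4 lists, at mean percentiles of 51.7, 41.7 and 38.7, Foxj1, the master regulator of motile cilia, was at or under 16.2, and Rsph1, Dnai1 and Dnai2 had no peak.

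The kinesins of cell division ranged from strong peaks to weak or unlisted ones. Kif14 (ENSMUSG00000041498), needed for cytokinesis, had a coding-sequence peak in all 4 libraries between positions 136525795 and 136527889 of chromosome 1. Its percentile there was 95.5 and 94.6 in knockout 1 and 2, and 95.2 and 94.9 in wild type 1 and 2, so this site did not separate the genotypes. Kif4, a chromokinesin of chromosome condensation and the central spindle, had a 3' UTR peak at 82.5 and 82.6 in the knockout and 80 and 78.2 in wild type. Kif20a, which moves the chromosomal passenger complex at anaphase, stood at 18.7 and 67.5 in the knockout and 73.4 and 74.4 in wild type. All 6 Kif20a peaks overlapped peaks of Cdc23 on the opposite strand, and no source states that the libraries keep the strand. Kif15, Kif22 and Kif2c, of the spindle and chromosomes, were listed in knockout 1 alone, at 20.7, 33.5 and 46.0.

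Of the other strong kinesins in all 4 lists, Kif26a, Kif1b and Kif13a did not separate the genotypes. Kif26a, an atypical kinesin that does not hydrolyse ATP, carried a broad coding-sequence peak at 86.6 and 76.0 in the knockout and 81.7 and 82.1 in wild type. In knockout 1 it was 2636 bases long within 1 exon block, and knockout 2 listed it as 2 peaks. Kif1b, which carries mitochondria and synaptic vesicle precursors, had 3' UTR peaks at 79.5 and 80.4 in the knockout and 73.0 and 80 in wild type. Kif13a, a vesicle motor, stood at 79.3 and 66.9 in the knockout and 72.1 and 74.3 in wild type. For Kif1b and Kif13a, too, the genotypes overlapped.

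Some members carried many separate peaks. Kif3c, a subunit of kinesin-II, had 13 peaks over the 4 lists in 6 regions, from the 5' UTR to the 3' UTR, of which 9 overlapped peaks on the opposite strand. Kif3b, another kinesin-II subunit, Kif21b, a kinesin that tunes microtubule growth in neurons, Dync1h1, Myo5a and Myo10 had 10 each. The best Kif3b peak, in the 3' UTR, was at 75.9 and 63.0 in the knockout and 71.9 and 76.4 in wild type. That of Kif21b, also in the 3' UTR, was at 68.1 and 55.4 in the knockout and 66.9 and 62.0 in wild type.

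Of the 19 myosins, 5 were in every list, as given above. Myo5a, the vesicle and pigment-granule motor, led those in all 4 libraries, with a 3' UTR peak at 88.5 and 84.6 in the knockout and 89.4 and 87.9 in wild type. Its 5' UTR also carried a peak in every list, over the start printed above, at 38.4 and 15.9 in the knockout and 6.25 and 37.7 in wild type. Myo19, a mitochondrial myosin, stood at 75.7 and 62.6 in the knockout and 66.7 and 69.1 in wild type, each time beside a peak of Znhit3 on the opposite strand. Myo5b, a motor of recycling endosomes, was in all 4 lists but weak, at 27.5 and 5.68 in the knockout and 14.0 and 21.1 in wild type.

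The non-muscle heavy chains dropped in and out of the lists, in both genotypes. Myh10 was at 81.2 in knockout 2 and at 86.8 and 81.4 in wild type 1 and 2, and had no peak in knockout 1. Myh9 was at 76.1 in knockout 2 and 59.3 in wild type 1, in different regions, with none in the other libraries. Myh14 was at 14.1 in knockout 2 and 17.5 in wild type 1, also in different regions. The sarcomeric genes Myh3 and Myh13 were weak, at 0.878 and 27.4 in knockout 2 and 2.89 and 12.6 in wild type 2. The slow-type heavy chain Myh7b was not weak, at 96.3 and 95.3 in the knockout and 94.9 and 62.7 in wild type. Of 13 striated muscle markers, 2 had a peak, Des and Ryr2, and Myog, Myod1, Tnnt2 and Actn2 had none. The non-muscle heavy chains and these sarcomeric genes, other than those named by rule, were examples picked once their values were known.

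The remaining members, also named after their values were seen, ranged from strong to weak. Kif2a, a kinesin that takes microtubule ends apart, stood at 72.4 and 66.1 in the knockout and 71.5 and 70.4 in wild type. Kif26b, an atypical kinesin, stood at 47.5 and 20.8 in the knockout and 35.9 and 35.1 in wild type. In both the genotypes overlapped, and for Kif26b the knockout libraries lay on either side of wild type. Myo9b, a relative of Myo9a, stood at 89.8 in knockout 2 and at 72.2 and 72.5 in wild type 1 and 2. The knockout 2 value came from a 3' UTR peak of that list alone. In the coding-sequence region of the wild-type peaks, knockout 2 stood lower, at 57.9. Myo18a, a myosin of the Golgi and actin bundles, stood at 88.9 and 64.3 in the knockout and 75.2 in wild type 2. Its knockout 2 value came from another region than the other values. Each lacked a peak in 1 library, Myo9b in knockout 1 and Myo18a in wild type 1. Myo15b stood at 32.6 in knockout 1 and at 14.0 and 16.2 in wild type 1 and 2. The wild type 2 value came from another region, where knockout 1 stood at 24.2. Kif18b, a mitotic kinesin, stood at 24.5 in knockout 2 and 27.0 in wild type 2, and Myo6, the myosin that walks to the minus end of actin, at 17.3 in knockout 2 and 7.56 in wild type 2. Kif5b, the common kinesin-1 heavy chain, stood at 7.61 in knockout 2 and 10 in wild type 1, in different regions. Kif18b, Myo6 and Kif5b were each listed in 1 library of either genotype, all at low percentiles.

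Where the peaks lay differed between the families. The 3' UTR held 77 of 127 kinesin peaks (60.6%) and 24 of 72 myosin peaks (33.3%), where it held 43.0% of the peaks of other protein-coding genes. Coding sequence held 44 kinesin peaks (34.6%), 36 myosin peaks (50%) and 14 of 21 dynein peaks, where it held 39.4% of the others. The kinesin lean to the 3' UTR was seen in each library, at 63.2% and 51.6% in knockout 1 and 2 and 66.7% and 60.7% in wild type 1 and 2. The myosin lean was not, since knockout 1 had 50% in the 3' UTR and 31.2% in coding sequence. The peaks of a gene recur across libraries, so these counts are no independent replicates and were not tested. A few genes weigh on the kinesin share: all 10 Kif3b, 10 Kif21b and 9 Kif1b peaks lay in the 3' UTR. Exon peaks with no finer class made 0.787% of kinesin peaks, 5.56% of myosin peaks and 12.3% of those of other protein-coding genes, which also bears on these shares.

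**Figure D2:**
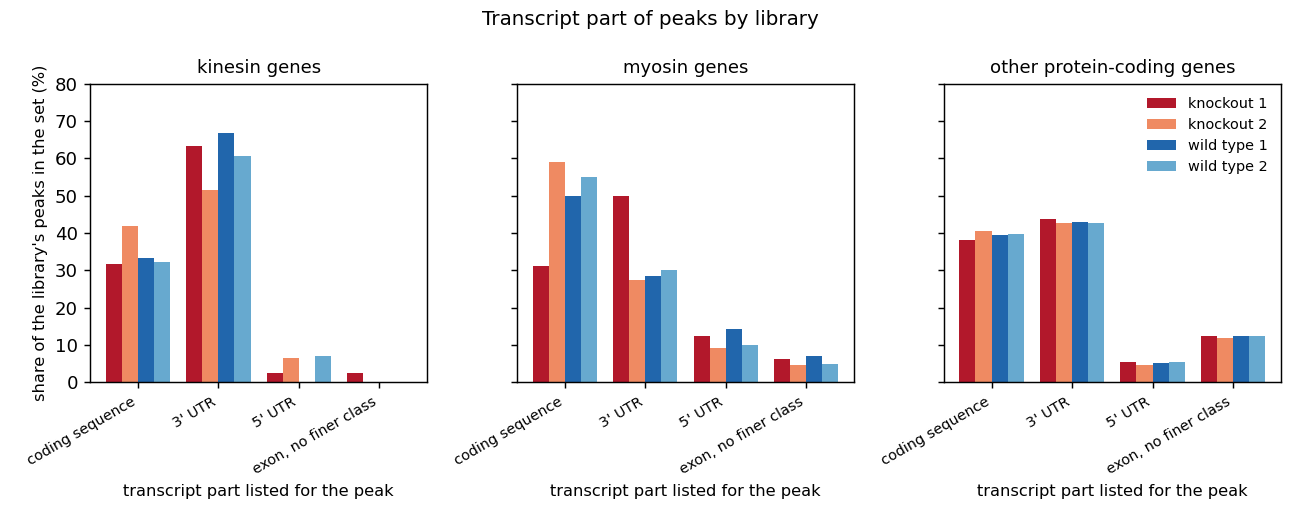
Share of peaks (%, vertical axis) listed in each transcript part (horizontal axis) for kinesin genes, myosin genes and other protein-coding genes, with a bar for each library, knockout libraries first. Kinesin bars for the 3' UTR lie between 51.6% and 66.7%, and those of other protein-coding genes between 42.6% and 43.8%.

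Between genotypes the transcript parts of motor peaks did not separate. Coding sequence held 42.4% ± 9.57 of them in the knockout and 43.2% ± 1.73 in wild type, and the 3' UTR held 47.3% ± 9.82 in the knockout and 47.2% ± 3.93 in wild type (SD, n = 2 each). Both differences, -0.864 and 0.0719 percentage points, were smaller than the spread between libraries. Leaving out some single libraries turned their sign. The coding-sequence difference was then 5.90 without knockout 1 and 0.358 without wild type 2. The 3' UTR difference was -6.87 without knockout 1 and -2.71 without wild type 2. Without knockout 2 the coding-sequence difference kept its sign, at -7.63.

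Motor peaks more often crossed exon junctions than peaks at large. Peaks of several exon blocks made 18.6% and 19.3% of motor peaks in knockout 1 and 2 and 20% and 22.2% in wild type 1 and 2, where they made 11%, 10.3%, 11% and 10.7% of all peaks in that order of libraries. Examples lay in long coding sequences. Kif26a had a 2-block peak of 2726 bases in wild type 2, Myh7b had an 11-block peak of 2003 bases in knockout 1, and Myo10 had a 9-block peak of 2007 bases in wild type 1.

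Few motor genes followed the genotype. A peak in both knockout libraries and neither wild-type library was listed for 3 of 52 motor genes (5.77%), Kifc5b, Kif23 and Myo9a, where it was listed for 2.27% of all genes. The reverse was listed for 0 of 52, where it was 1.56% of all genes. Leaving out a library asks less of a gene, so these counts can then only stay or rise. There were 5 knockout-only genes without knockout 1 and 11 without knockout 2. Wild-type-only genes numbered 2, 3 and 1 without knockout 1, knockout 2 and wild type 1. The shares of all genes under these settings are not given here. By region, 4 of 94 motor regions (4.26%) were knockout-only and 1 (1.06%) wild-type-only, where these were 2.51% and 2.02% of all regions. Region counts, too, can only stay or rise when a library is left out. Without knockout 1 and without knockout 2, knockout-only regions numbered 14 and 19, and wild-type-only regions 2 and 5. Without wild type 1 and without wild type 2, the wild-type-only regions numbered 8 and 9. The shares of all regions under these settings are not given here.

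Kifc5b (ENSMUSG00000024301), a minus-end-directed kinesin, was the strong case. Its peak covered 7 exon blocks of coding sequence on chromosome 17, positions 26920871 to 26925642 (plus strand, mm10). It stood at the 97.1 percentile in knockout 1 and 95.8 in knockout 2, with authors' folds of 217 and 203, and no peak of any gene overlapped it in either wild-type list. Kifc1, at positions 33875664 to 33890633 of the same chromosome in RefSeq, shares its older names Hset and Kifc5a with Kifc5b and is a close relative. Kifc1 had 1 weak 5' UTR peak, in knockout 2, at 25.3. How reads that fit both copies were placed is not given in the sources used here, so the split between Kifc5b and Kifc1 is uncertain.

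The other genes of this kind were weaker or scattered. Kif23 (ENSMUSG00000032254), the centralspindlin kinesin of cytokinesis, had a coding-sequence peak on chromosome 9, positions 61923764 to 61924153, at 48.6 and 29.0 in knockout 1 and 2. Myo9a (ENSMUSG00000039585), an unconventional myosin, had its peaks in different places, at 81.9 in coding sequence in knockout 2 and at 8.11 in the 3' UTR in knockout 1. No Myo9a region was therefore shared by the knockout libraries.

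Kif14 showed the strongest region that followed the genotype, beside the site it had in every library. A coding-sequence peak near the start of the gene, positions 136466343 to 136471344 of chromosome 1, stood at 98.6 in knockout 1 and 99.1 in knockout 2, with folds of 528 and 530. Its main exon block, positions 136467848 to 136469174, begins at a RefSeq transcript start, near which the bases printed above lie. That start is not the first base of the gene, which RefSeq places at 136466301. The peak also held a short exon block upstream of it, from position 136466343 in knockout 1. Neither wild-type list held a peak there. In knockout 2 it was among the peaks whose p-value had no finite log10. Kif24, a kinesin of the mother centriole, gave the remaining knockout-only region, in coding sequence at 24.2 and 5.68.

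The only wild-type-only region was in the 3' UTR of Myo10 (ENSMUSG00000022272), the motor of filopodial tips. It lay at positions 25812146 to 25812984 of chromosome 15 and stood at 92.9 in both wild type 1 and wild type 2, with folds of 59.7 and 71.9. A neighbouring 3' UTR peak, positions 25813314 to 25813673, was listed with the same limits in knockout 2 at 77.5 and in wild type 1 and 2 at 82.1 and 81.5, but not in knockout 1. The 5' UTR of Myo10 had a weak peak in all 4 lists, at 31.3 and 27.0 in the knockout and 41.0 and 36.1 in wild type, and wild type 1 alone held a coding-sequence peak at 97.7.

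A long peak can hide such a site by bridging regions. Kif13b (ENSMUSG00000060012), a vesicle motor, counted as shared, because wild type 2 listed 1 peak over 3 exon blocks where wild type 1 listed separate peaks and the knockout lists held the 3' UTR peak alone. Exon blocks of at least 100 bases were then taken on their own, an analysis chosen after the data were seen. The block at positions 64802974 to 64803940 of chromosome 14 was covered in both wild-type lists and in neither knockout list. The wild type 1 peak there stood at 94.5. In wild type 2 the whole 3-block peak, which also covers the 3' UTR block, stood at 94.3. The 3' UTR block of Kif13b was covered in every list, at 86.5 and 81.6 in the knockout and, as a separate peak, at 84.3 in wild type 1. The same view gave a knockout-only block of Myh7b, positions 155630475 to 155630593 of chromosome 2, of which the knockout 1 peak covered the end from position 155630574. The whole peaks, of 11 exon blocks in knockout 1 and 7 in knockout 2, stood at 96.3 and 95.3. In wild type 1 a 10-block peak of the same region, from position 155630781, stood at 94.9. The shares of such blocks over all genes are not given here.

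**Figure D3:**
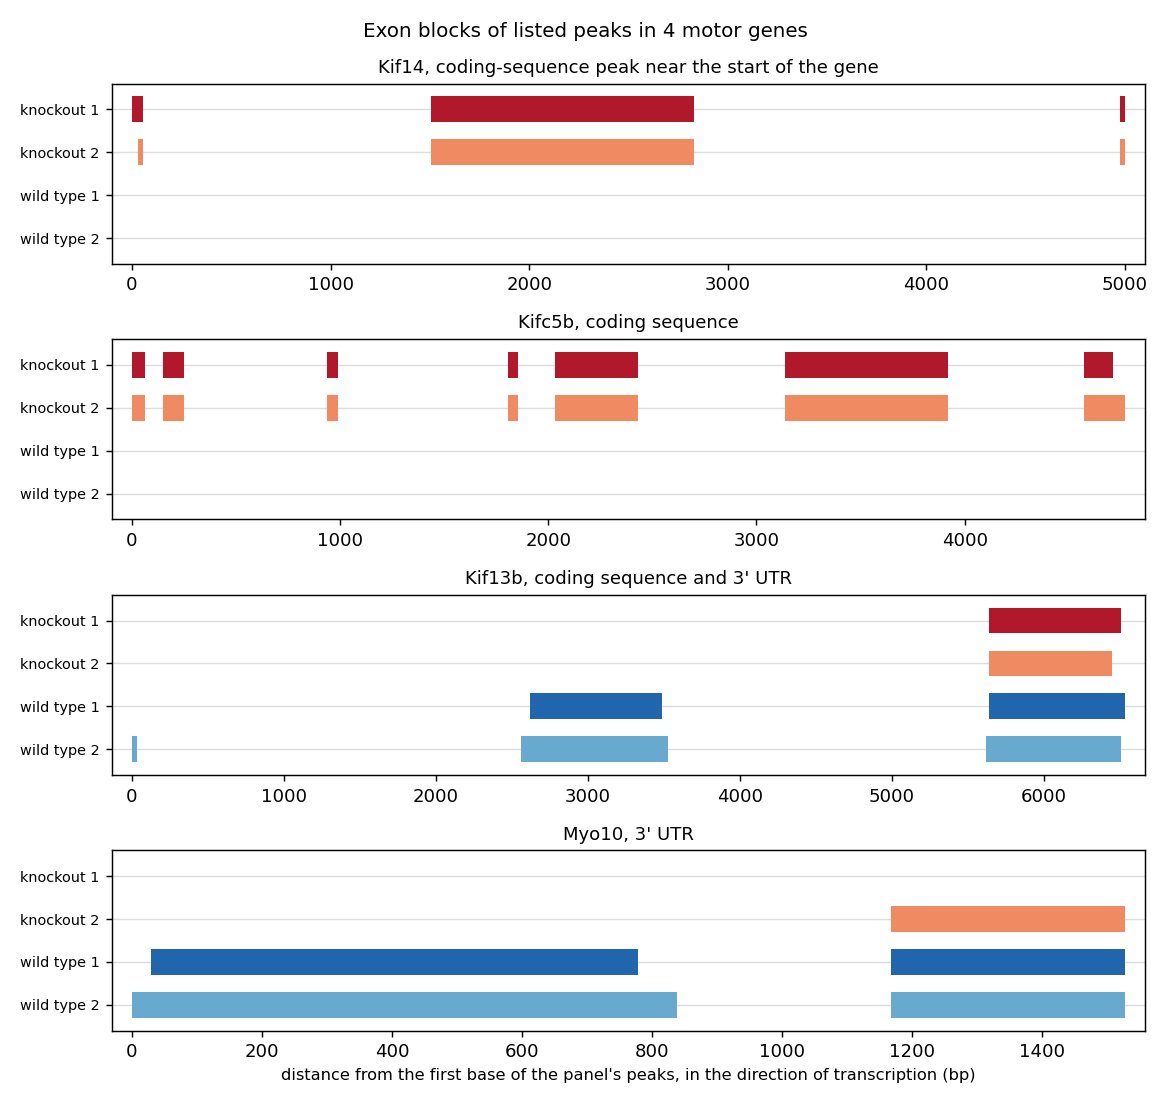
Exon blocks (bars) of the listed peaks in each library (rows, knockout above wild type) for parts of Kif14, Kifc5b, Kif13b and Myo10, by distance in bp along the gene from the first base of the panel's peaks. The Kif14 and Kifc5b blocks appear in both knockout rows and in no wild-type row, and the first Myo10 block and the middle Kif13b block appear in both wild-type rows and in no knockout row.

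Among the 24 genes listed in all 4 libraries, both knockout percentiles lay above both wild-type percentiles in 6 (25%), where this held for 16.5% of all such genes. The reverse held for 4 (16.7%), where it was 10.3%. The median difference, knockout minus wild type, was -0.978 percentile points over the motor genes, with 9 positive and 15 negative, and 0.0872 over all 5683 genes. The libraries of a genotype differed by a median of 11.4 points in the knockout and 3.94 in wild type for the same 24 genes, beside 7.36 in the knockout and 3.47 in wild type for all such genes.

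The largest differences with no overlap were in both directions. Myh7b, a slow-type myosin heavy chain, stood at 96.3 and 95.3 in the knockout and 94.9 and 62.7 in wild type; the wild type 2 value came from another region of the gene, and wild type 1 was close to the knockout. Kif24 stood at 67.7 and 60.7 in the knockout and 50.4 and 50.6 in wild type, a difference of 13.7 points. Kif16b, an early-endosome motor, stood at 36.5 and 26.0 in the knockout and 20.8 and 16.2 in wild type. Kif28 stood at 74.8 and 67.4 in the knockout and 62.4 and 53.7 in wild type, but its peak lies where the gene overlaps the end of Ahctf1 on the same strand. All 4 lists held a far stronger Ahctf1 3' UTR peak over it, so the Kif28 values may belong to Ahctf1 and the gene is uncertain.

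In the other direction, Myo10 stood at 31.3 and 77.5 in the knockout and 97.7 and 92.9 in wild type, a difference of -40.9 points. Each of these values came from a different region of the gene. The 5' UTR region that every list held stood at 31.3 and 27.0 in the knockout and 41.0 and 36.1 in wild type. For Kif20a, given above, the difference was -30.8; knockout 2 and both wild-type libraries had their best peak in coding sequence, and knockout 1 listed a 3' UTR peak alone. Kif5c, a kinesin-1 heavy chain of neurons, stood at 36.5 and 20.8 in the knockout and 41.0 and 47.5 in wild type. Kif13b stood at 86.5 and 81.6 in the knockout and 94.5 and 94.3 in wild type. The knockout values came from its 3' UTR peak, which stood at 84.3 in wild type 1, between the knockout values. Kif7, the kinesin of Hedgehog signalling at the cilium, had a difference of -18.3 that did overlap, at 71.5 and 42.6 in the knockout and 85.8 and 64.9 in wild type; its value in wild type 1 came from a 6-block coding-sequence peak that no other list gave for Kif7.

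**Figure D4:**
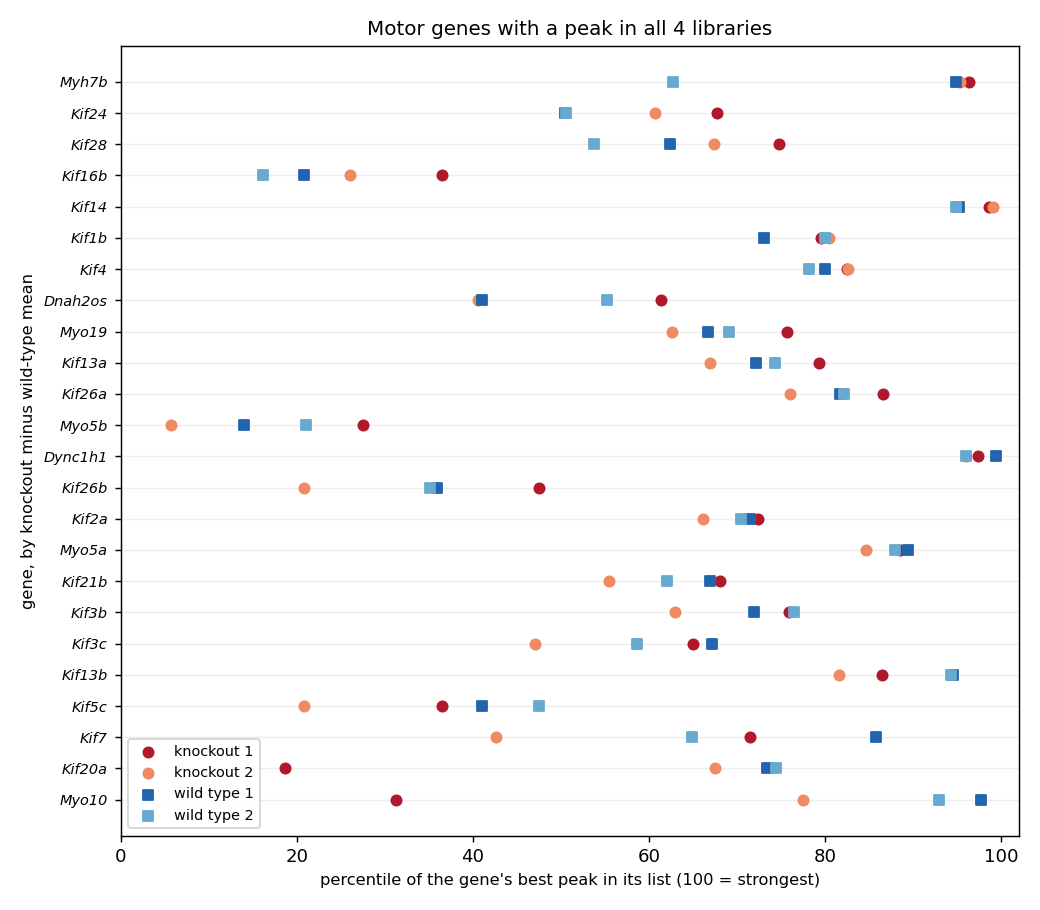
Percentile of the best peak (horizontal axis, 0 to 100) in each library for the 24 motor genes listed in all 4 libraries (rows, ordered by knockout minus wild-type mean), with circles for knockout and squares for wild type. Most rows mix circles and squares, and Myo10 at the bottom spans 31.3 to 97.7.

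Strong motor peaks were missing from some lists more often than strong peaks at large. Of 13 motor regions whose best peak was among the strongest 10% of its list, 6 (46.2%) had a peak in all 4 libraries, where this held for 69.7% of all 1548 such regions. The other 7 were the regions of Kif14, Kifc5b and Myo10 above, those of Dync1li1 and Myh7b, each missing from 1 list, that of Kif1c, and the wild type 1 coding region of Myo10. Kif1c, a vesicle kinesin, had a 5-block coding-sequence peak at 93.7 in knockout 1 and 93.0 in wild type 2 and no peak in knockout 2 or wild type 1. Among the 6 in all libraries, the regions of Kif28 and Kif20a owed their rank to the overlapping peaks of Ahctf1 and Cdc23. Of the 13 regions, 9 held a peak of several exon blocks, of which 4 were in all 4 libraries; for all genes this was 448 of 716 (62.6%), against 631 of 832 (75.8%) for regions of 1 block.

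Genes of a single list were weak. Of 52 motor genes, 11 (21.2%) had a peak in 1 library only, where this was 17% of all genes, with a median percentile of 12.6 and a highest of 46.0. Knockout 1, the longest list, held 8 of them: Kif15, Kif19a, Kif22, Kif2c, Kifc2, Myo1d, Myo1h and Myo7a. Knockout 2 held Kifc1 and Myo1e, and wild type 2 held Dnah2. How the single-list genes at large were split over the libraries is not given here.

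Of 52 partner genes with a peak, 1 (1.92%) was knockout-only and 0 were wild-type-only, where the shares were 2.27% and 1.56% of all genes. As a background to the counts that follow, 38.4% of all protein-coding genes appeared in at least 1 list. Among the 9949 genes of any list, 57.1% appeared in every list. The partner counts were not tested against these shares. Of 18 kinesin partners, 8 had a peak and 7 had one in all 4 libraries, led by the scaffold Mapk8ip3 at 97.5 and 96.3 in the knockout and 97.6 and 97.5 in wild type, then Trak1, the adaptor of mitochondrial transport, at 88.7 and 85.2 in the knockout and 86.1 and 88.5 in wild type, and next by the scaffolds Mapk8ip2 and Mapk8ip1. Of 37 dynein and dynactin partners, 17 had a peak and 9 had one in all libraries, led by the light chain Dynll1, the centrosomal protein Nin, the dynein regulator Nde1 and the cargo adaptor Bicd2. Actr1a, the actin-related protein of the dynactin filament, was the one partner that followed the genotype, at 12.6 and 76.2 in knockout 1 and 2 and in neither wild-type list. Of 25 myosin partners, 13 had a peak and 10 had one in all libraries, led by the small GTPase Rhob and the kinases Cit, Rock2 and Cdc42bpb. Of the 17 tubulins and actins, 14 had a peak and 12 had one in all libraries, led by Tuba4a and Tubb4b at a mean percentile of 98.5 each, then Tubb2b and Tubb5.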

How the data were processed

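Each of the 4 MeRIP-seq libraries has a deposited peak list of its own; the lists are not of pooled samples. Per the file headers, each deposited peak has a p-value, its log10 (a score here, since it passes the range of log values), an adjusted log10 score and a fold enrichment, which is a ratio to a background the lists do not name. HISAT2, HOMER and mm10 appear in the submitters' processing notes. What called and filtered the peaks is not given in the sources used here. Between 3 and 6 peaks a list were on unplaced sequence and were dropped. A region holds all peaks that share 1 bp or more of exon block, whatever their strand; 25 of 220 motor peaks (11.4%) overlapped a peak on the opposite strand, against 6.36% of all peaks. Starts are given 1-based. Percentiles were ranked within each list. Groups follow the labelled genotype. The members and lists were chosen with earlier results of these data known. Named by rule were the genotype-following members, the 6 strongest shared members of each family, the 5 with the most peaks (6 with ties), every dynein, the 4 largest differences in each direction without overlap, and the 4 strongest and any genotype-following members of each partner list; others were named after their values were seen. No p is given for a value over the members, in place of the planned permutation tests. Region counting was tested on simulated lists, made of slightly shifted wild type 1 peaks that overlapped no other peak. Bridging by long peaks, split peaks and opposite-strand overlaps were not simulated. Promoter sequences and gene spans are from RefSeq (GRCm38.p6). Python 3.11.15, numpy 2.4.6, pandas 2.3.3 and matplotlib 3.10.9 were used. Alternatives were stronger or shortened lists, other overlap rules, heavy chains alone, strength by fold and leaving out each library.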

Additional observations from a re-analysis of the deposited data

How the results depend on the processing

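Of 91 recomputed values, 17 moved by more than 1.5 times (counts) or by more than the spread between libraries (differences), 12 of these on leaving out a library, where a genotype is then judged from 1 list; for the others the cause was not tested. The stronger 50% of each list left 1 knockout-only gene (Kifc5b), 2 knockout-only regions, and 15 genes and 17 regions in all 4 libraries. It gave differences of 3.27 points in coding sequence and -3.89 in the 3' UTR, both of turned sign. The percentile difference, taken here from the median percentile of each library and not gene by gene, was 3.06 against -0.834. Leaving out each library gave 3 to 11 knockout-only and 0 to 3 wild-type-only genes. Knockout-only regions numbered 5 to 19 against 4 as reported, and wild-type-only regions 2 to 9. Such counts can only stay or rise when a list is dropped, and the shares of all genes and regions are not given here. The differences took either sign, at -7.63 to 5.90 points in coding sequence and -6.87 to 7.02 in the 3' UTR. The percentile difference was -4.93 to 2.62. With lists of equal length Myo9a was no longer knockout-only, leaving 2 genes, and the differences in coding sequence and 3' UTR were 1.08 and -3.50 points. Peaks with an adjusted p-value under 0.05, peaks with no opposite-strand peak and whole spans were tried after seeing the data. No paired analysis was possible because wild-type libraries are not numbered in the labels, and counts and shares were compared with no model. Depth is unknown here, so a missing peak cannot be told apart from too few reads.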
